A study of Danio rerio with 4 samples.

Results

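The 6 genes described here, tdrd1, tdrd5, tdrd6, tdrd7a, tdrd9 and tdrkh, encode tudor domain proteins of the piRNA pathway. They were chosen by symbol, ignoring case, among the Ensembl gene IDs of 2 tables of RNA recovered with the RNA helicase Ddx3xb from early zebrafish embryos. All 6 were found, each on a single ID, among 27205 IDs in either table. The symbol table writes 3 of them in human style, as TDRD1, TDRD6 and TDRD9, and they are printed that way below.

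The study is a RIP-seq experiment, in which RNA held by a tagged protein is pulled down with the protein and sequenced. Embryos of wild-type genotype received flag-ddx3xb mRNA by injection and were taken at 4 or 2 hours post-fertilization (hpf), with 2 biological replicates at each age. RNA was recovered on anti-FLAG M2 beads, and the molecule is labelled polyA RNA. Both ages share the injected mRNA, the genotype and the beads, so age is the only labelled difference, and descriptions of all 4 samples also carry the unexplained word control. An injected message adds to the embryo's own Ddx3xb, which limits these precipitates as a picture of the endogenous protein. Without an input or a mock pull-down among the samples used here, each value is an abundance in the precipitate and not an enrichment.

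Tudor domains bind methylated arginines, and the Piwi proteins that carry piRNAs are among their best known partners. piRNAs are small RNAs that guide Piwi proteins to transposon transcripts and so protect the genome of germ cells. In zebrafish these proteins gather with maternal mRNA in the germ plasm, the cytoplasm that the egg hands to the future germ cells. The embryo at these ages still carries much maternal RNA laid down in the egg. No protein, promoter or genome sequence was used here, so none is shown, and positions of the genes are not given.

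The values are the authors' means per age, in RPKM (read density, corrected for gene length and for the size of the library), so no value has an SD, an n or a p-value, and no difference was tested against replicate error. The depth of the libraries is unknown, since the tables give no counts. The tables labelled 4 and 2 hpf list 24904 and 25804 genes, with medians of 0.754 and 0.752 RPKM. Early zygotic genes were lower in the table labelled 4 hpf (4 of 5 tested at least 2-fold lower, none higher, of 14 listed). Of all genes tested, 10.9% were at least 2-fold lower and 33.0% higher. Embryos switch these genes on as they age, and the labelled direction is the reverse. Of these, noto was at 9.21 RPKM (4 hpf) and 125 RPKM (2 hpf), and tbx16 at 1.25 and 44.2 RPKM in that order. The values are levels in a precipitate without an input. An exchange of the labels would turn every direction given below. Whether the labels were exchanged was not tested, and "at 4 hpf" or "at 2 hpf" refers to the table with that label. The bait transcript ddx3xb was at 194 RPKM (4 hpf) and 97.9 RPKM (2 hpf), and reads of injected and embryonic ddx3xb cannot be told apart.

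All 6 tudor genes were detected at both ages, at modest levels, and all 6 were more abundant in the 4 hpf precipitate. So were 73.0% of all genes that reached 1 RPKM at either age. The RPKM of the 6 ran from 7.30 to 24.6 at 4 hpf and from 1.54 to 5.80 at 2 hpf. Added together they came to 91.9 RPKM at 4 hpf and 21.3 RPKM at 2 hpf, a ratio of 4.32. That is 0.0165% and 0.00288% of all RPKM summed at 4 and 2 hpf, sums in which a few very abundant features weigh heavily. In precipitates from whole embryos, fewer cells of a type and less RNA per cell cannot be told apart.

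**Figure D1:**
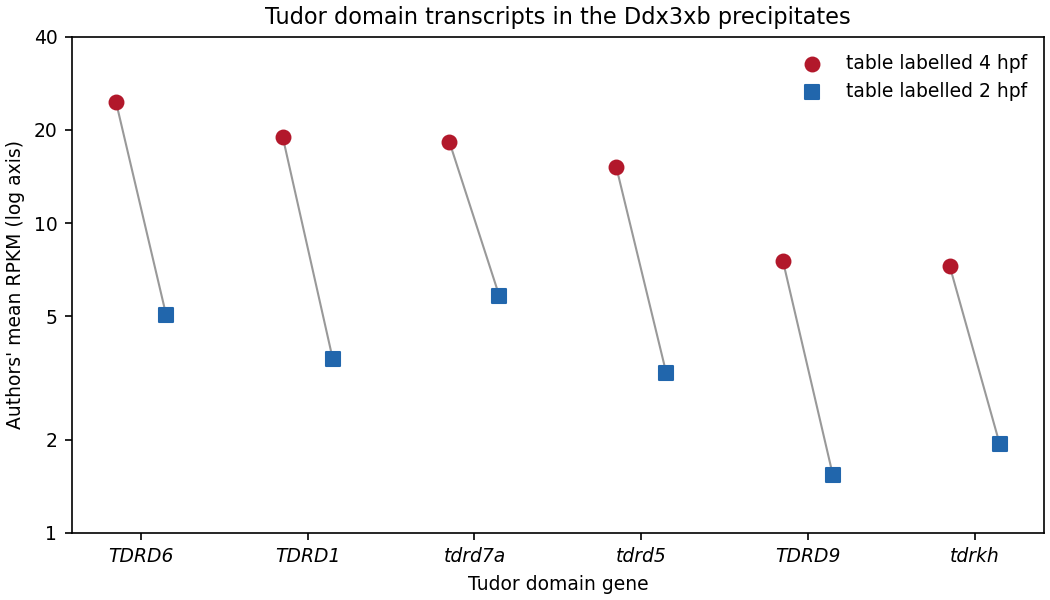
The authors' mean RPKM of each tudor domain gene (log axis) at 4 hpf (red circles) and at 2 hpf (blue squares), joined by a line for each gene, with no error bars because each age has 1 mean. The 4 hpf values lie between 7.30 and 24.6 RPKM and the 2 hpf values between 1.54 and 5.80 RPKM.

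The multi-tudor scaffold genes stood highest at 4 hpf. TDRD6 (ENSDARG00000070052), whose zebrafish protein Tdrd6a binds the germ plasm organizer Bucky ball, had 24.6 RPKM at 4 hpf and 5.06 RPKM at 2 hpf. This was the most abundant of the 6 at 4 hpf, with a difference of 2.08 in log2(RPKM + 1), 4 hpf minus 2 hpf. TDRD1 (ENSDARG00000007465), whose protein is a partner of Piwi proteins in zebrafish and mouse, had 18.9 RPKM at 4 hpf and 3.64 RPKM at 2 hpf. Its difference of 2.1 was the widest of the 6. The added 1 in this scale understates the difference of low genes, and the plain ratio of RPKM was 4.85 for TDRD6 and 5.21 for TDRD1.

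The genes for proteins with LOTUS domains, which bind RNA or the helicase Vasa in other animals, came next. tdrd7a (ENSDARG00000032808), known for the structure of germ granules in zebrafish, had 18.3 RPKM at 4 hpf and 5.80 RPKM at 2 hpf. It was the most abundant of the 6 at 2 hpf and had the smallest plain ratio, 3.15, with a log2 difference of 1.50. tdrd5 (ENSDARG00000071450), required in mice for transposon silencing in male germ cells, had 15.2 RPKM at 4 hpf and 3.29 RPKM at 2 hpf. Its log2 difference of 1.92 and ratio of 4.63 were nearer to those of TDRD6 and TDRD1 than to those of tdrd7a.

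The helicase gene TDRD9 and the KH domain gene tdrkh were lowest at both ages. TDRD9 (ENSDARG00000013453), which encodes an RNA helicase with a tudor domain that works with a Piwi protein in the mouse, had 7.57 RPKM at 4 hpf and 1.54 RPKM at 2 hpf. The difference was 1.76, and the plain ratio of 4.93 was the second highest of the 6. tdrkh (ENSDARG00000053474), which encodes a mitochondrial protein with KH domains that takes part in trimming piRNA ends in mice and silkworms, had 7.30 RPKM at 4 hpf and 1.94 RPKM at 2 hpf. The difference for tdrkh was 1.50, the smallest by a narrow margin, with a plain ratio of 3.76.

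Within a table, levels of the 6 differed by up to 3.36-fold at 4 hpf and 3.77-fold at 2 hpf. The descending order was TDRD6, TDRD1, tdrd7a, tdrd5, TDRD9 and tdrkh at 4 hpf, and tdrd7a, TDRD6, TDRD1, tdrd5, tdrkh and TDRD9 at 2 hpf. The orders differ in the place of tdrd7a and in that of the lowest pair, TDRD9 and tdrkh. TDRD1 over tdrd7a was 1.04 at 4 hpf and 0.628 at 2 hpf, and TDRD9 over tdrkh was 1.04 at 4 hpf and 0.791 at 2 hpf. Such ratios within a table do not depend on a single factor applied to the whole table, though quantile normalization can change them. TDRD6 over TDRD1, at 1.30 (4 hpf) and 1.39 (2 hpf), and TDRD6 over TDRD9, at 3.25 and 3.30 in that order, differed little between ages. Without replicate values, it cannot be said which neighbours in either order differ beyond the spread between samples.

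In the ranking of all listed genes, each tudor gene stood higher at 4 hpf than at 2 hpf. The share of all genes that also moved up was not computed, so the move cannot be called particular to the 6. TDRD6 was at rank 1991 of 24904 at 4 hpf and rank 4649 of 25804 at 2 hpf. TDRD1 was at ranks 2556 (4 hpf) and 5875 (2 hpf), tdrd7a at 2638 and 4162, and tdrd5 at 3072 and 6255. TDRD9 climbed the most places, standing at rank 5057 at 4 hpf and 9505 at 2 hpf, and tdrkh was at 5175 and 8455. The share of listed genes below each of the 6 was therefore 79.2% to 92.0% at 4 hpf and 63.2% to 83.9% at 2 hpf. Ranks are also free of any scaling of a whole table.

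A gene was counted as higher or lower at a difference of 1 or more in log2(RPKM + 1), which is 2-fold on that scale, among the 13341 genes that reached 1 RPKM at either age. All 6 tudor genes passed that filter, and all 6 were higher at 4 hpf, beside 33.0% of all genes tested. None was lower, beside 10.9% of all genes tested. The median difference of the 6 was 1.84 and that of all genes tested 0.66. A stricter reading sets each gene against that median of all genes. On it, 4 of the 6 (TDRD6, TDRD1, tdrd5 and TDRD9) lay at least 2-fold above, beside 7.85% of all genes tested, while tdrd7a and tdrkh lay 0.84 and 0.83 above. In the ranking of all differences the percentile was 98.7 for TDRD1, 98.6 for TDRD6, 96.9 for tdrd5, 94.2 for TDRD9, 87.5 for tdrd7a and 87.3 for tdrkh.

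**Figure D2:**
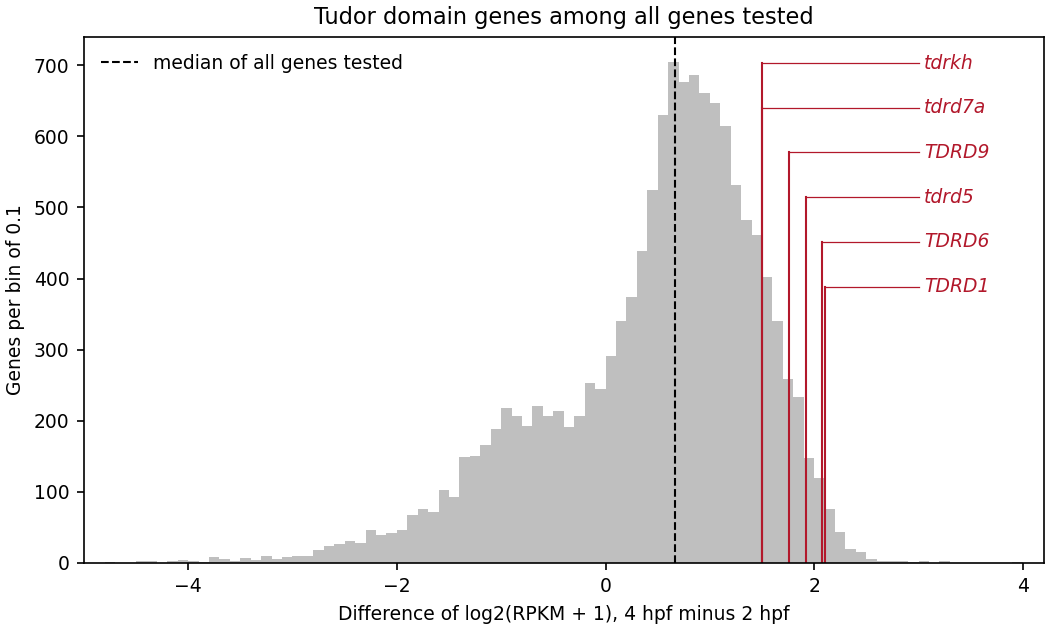
Distribution of the difference in log2(RPKM + 1), 4 hpf minus 2 hpf, over the 13341 genes tested (grey bars, genes per bin; differences beyond the axis are not drawn), with the 6 tudor domain genes as red lines and the median of all genes, 0.66, dashed. The red lines stand between 1.50 and 2.1, to the right of the dashed line, and their heights only separate the names.

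Genes of like level give a closer background. Over 3716 genes whose mean of the log2(RPKM + 1) values at both ages fell within the range of the 6 (2.22 to 3.64), 45.0% were at least 2-fold higher at 4 hpf and the median difference was 0.91. Within these genes the tudor genes held percentiles from 83.2 (tdrkh) to 99.1 (TDRD1). This background was chosen after the data were seen.

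The size of the differences followed the scaling of the tables. All 6 stayed above 0 under every scaling and pseudocount tried, as did 43.9% (equal median ratio) to 79.0% (equal sum) of all genes tested. Over all genes, 4409 were higher and 1452 lower as deposited, 6668 and 1199 with an equal sum, 1369 and 2084 after quantile normalization, 801 and 2222 without the 100 highest genes, and 347 and 2533 at an equal median ratio. After rescaling to an equal sum, 6 of 6 were at least 2-fold higher, beside 47.7% of all genes. After quantile normalization 5 of 6 were (10.3% of all genes), with sums equal once the 100 highest genes were set aside 4 of 6 (6.5%), and with the median ratio between tables set to 1 over genes at 5 RPKM or more 2 of 6 (2.86%), namely TDRD6 and TDRD1. With a pseudocount of 5 it was 4 of 6 (14.3%). With none at all, over genes listed in both tables that reached 1 RPKM at either age, it was 6 of 6 (47.3%). At a 4-fold threshold it was TDRD6 and TDRD1 again, 2 of 6, beside 2.18% of all genes tested. Under the same settings and filters, TDRD6 kept a percentile between 96.3 and 99.3 and TDRD1 between 96.0 and 99.4. For tdrd5 it ran from 93.0 to 98.5, for TDRD9 from 83.8 to 97.9, for tdrd7a from 76.3 to 93.9 and for tdrkh from 77.0 to 93.8.

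**Figure D3:**
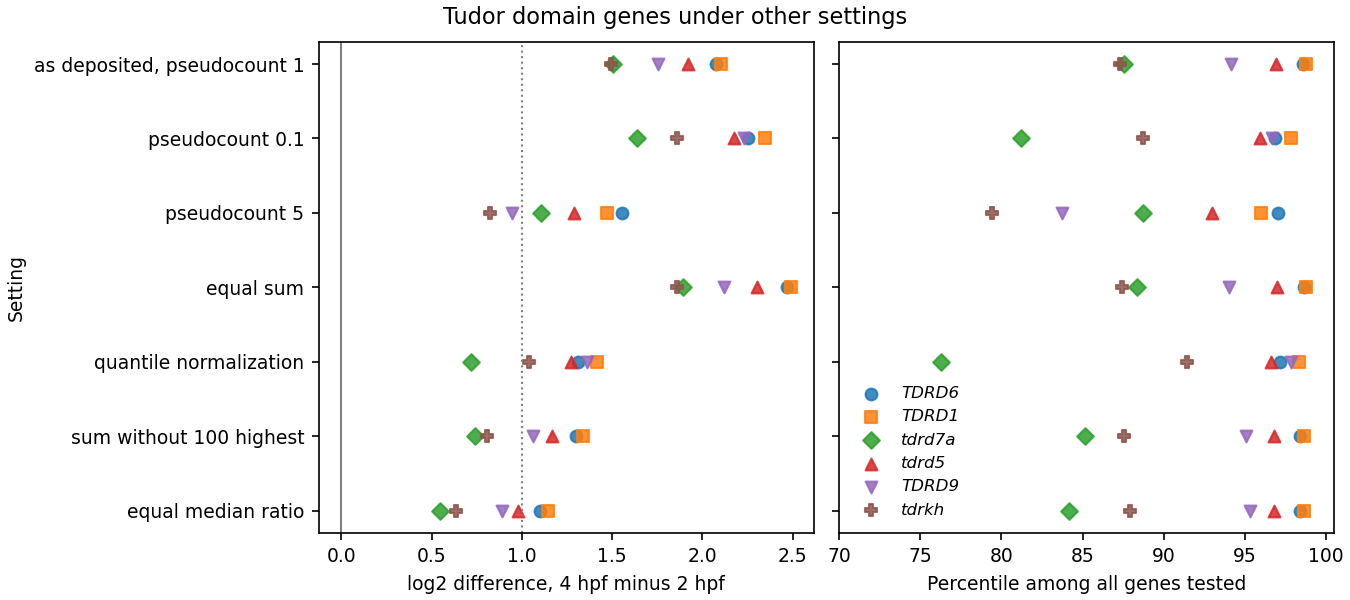
Log2 difference, 4 hpf minus 2 hpf (left), and percentile among all genes tested (right) of each tudor domain gene under 7 settings, 1 row each, with a solid line at 0 and a dotted line at the 2-fold threshold. All points lie right of 0, and with an equal median ratio only TDRD6 and TDRD1 lie right of the dotted line.

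Ratios to a second transcript of the same table give a further view that no single factor applied to a whole table can alter. Quantile normalization, which is not a single factor, can alter them. The bait transcript ddx3xb had 7.89 times the RPKM of TDRD6 at 4 hpf and 19.3 times at 2 hpf. For TDRD1 the same ratio was 10.2 at 4 hpf and 26.9 at 2 hpf, and for tdrd7a, the least changed, 10.6 and 16.9. All 6 thus gained on the bait, by 0.67 (tdrd7a) to 1.40 (TDRD1) on the log2 scale of the plain RPKM ratios. So did 47.9% of the genes listed in both tables that reached 1 RPKM at either age. Reads of the bait include those of the injected message, which cannot be told apart. The paralog ddx3xa, named after its values were seen, was at 73.9 RPKM (4 hpf) and 19.7 RPKM (2 hpf). Its plain ratio of 3.75 was at percentile 88.6 of the plain ratios. That lay above the ratio of tdrd7a (3.15), next to that of tdrkh (3.76) and below those of TDRD6, TDRD1, tdrd5 and TDRD9. Against buc, the gene of the germ plasm organizer Bucky ball, all 6 lost, as did 98.1% of the same background genes, so this is near the background. buc stood at 295 RPKM at 4 hpf and 53.4 RPKM at 2 hpf, and had 12.0 times the RPKM of TDRD6 at 4 hpf and 10.6 times at 2 hpf. Relative to buc the 6 changed by -0.09 (TDRD1) to -0.81 (tdrd7a) on the same scale.

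The other tudor genes of RNA metabolism were mixed. Of 12 listed, 10 were matched and tested, of which 6 were at least 2-fold higher at 4 hpf and none 2-fold lower. The shares over all genes tested were 33.0% higher and 10.9% lower. Differences ran from -0.60 (SMNDC1) to 2.14 (stk31), with a median of 1.19. The kinase-like gene stk31, expressed in germ cells, was at 50.2 RPKM at 4 hpf and 10.6 RPKM at 2 hpf, and SND1, a nuclease-domain protein gene of wide expression, at 46.2 RPKM (4 hpf) and 11.0 RPKM (2 hpf). Named after their values were seen, tdrd12 and tdrd15 had smaller differences. tdrd12 was at 1.56 RPKM at 4 hpf and 0.777 RPKM at 2 hpf, a difference of 0.53 at percentile 42.8. tdrd15 had a difference of 1.17 at percentile 75.1. Further IDs in the naming table are given because they bear on the 6. tdrd6b, named after its values were seen, was at 19.6 RPKM at 4 hpf and 3.12 RPKM at 2 hpf, a difference of 2.32 at percentile 99.7. A second ID carries the plain symbol TDRD7 (ENSDARG00000077523), a synonym of tdrd7a in RefSeq's gene table, and was near the floor, at 0.118 RPKM at 4 hpf and 0.272 RPKM at 2 hpf. Reads shared by near-identical copies could have been split by the authors' counting, which would make values of such pairs uncertain. Whether any genes named here are such copies was not tested.

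Partners of the tudor proteins in the piRNA pathway had differences from 0.50 to 1.97. Of 15 listed, 10 were matched and tested. At least 2-fold higher at 4 hpf were 6 of them and none was lower, with a median difference of 1.11. The shares over all genes tested were 33.0% higher and 10.9% lower. DDX4, the gene of the germ cell helicase Vasa, was at 43.1 RPKM at 4 hpf and 12.7 RPKM at 2 hpf. ASZ1, which encodes a mitochondrial partner of the piRNA machinery in mice, was at 37.8 RPKM at 4 hpf and 8.88 RPKM at 2 hpf. The Piwi gene PIWIL2 was at 5.94 RPKM (4 hpf) and 1.10 RPKM (2 hpf), a difference of 1.73. The other listed Piwi gene, PIWIL1, named for its role after its values were seen, was low at both ages, at 1.66 RPKM (4 hpf) and 0.457 RPKM (2 hpf). Its difference was 0.87 and its plain ratio 3.63. PRMT5, the methyltransferase gene whose product makes the arginine marks that tudor domains bind, named likewise, was at 10.1 RPKM at 4 hpf and 5.38 RPKM at 2 hpf, a difference of 0.80. The added 1 understates the difference of low genes such as PIWIL1. With a pseudocount of 0.1, 8 of the 10 partners were at least 2-fold higher, beside 6088 of the 13341 genes tested.

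Of 13 germ plasm and germ cell genes outside the piRNA list, 11 were tested, 7 were at least 2-fold higher at 4 hpf and none was lower, with a median of 1.20. Differences ran from -0.18 (NANOS3) to 2.445 (buc). The Bucky ball relative buc2l was at 54.3 RPKM at 4 hpf and 10.8 RPKM at 2 hpf, and hook2 at 67.7 and 26.8 RPKM in that order. Named after their values were seen, NANOS3 was at 4.56 RPKM (4 hpf) and 5.30 RPKM (2 hpf), and DND1 had a difference of 0.70. Of 10 oocyte and egg genes, 9 were tested, 5 were higher and none lower, with a median of 1.04. Differences ran from 0.12 to 1.93. The widest was that of the egg envelope gene zp3b, at 10.9 RPKM (4 hpf) and 2.12 RPKM (2 hpf). Another egg envelope gene, zp2.1, named after its values were seen, was at 1.62 RPKM (4 hpf) and 1.39 RPKM (2 hpf). The abundant cldnd was at 82.2 RPKM (4 hpf) and 42.5 RPKM (2 hpf), a difference of 0.94. Tudor genes of chromatin and other nuclear roles also leaned to higher values at 4 hpf. Of 20 listed, 14 were tested, 11 were at least 2-fold higher and none lower, with a median of 1.23. The histone methyltransferase gene setdb1a was at 101 RPKM at 4 hpf and 20.0 RPKM at 2 hpf. Over all genes tested, 33.0% were higher and 10.9% lower with the values as deposited. At an equal median ratio, 2.86% of all genes were higher. Higher then were 1 of the other RNA tudor genes, 1 chromatin tudor gene, none of the piRNA partners, 2 germ plasm genes and 1 egg gene. After quantile normalization the counts were 3, 2, 2, 2 and 1 in that order, beside 10.3% of all genes. With an equal sum they rose to 8, 14, 9, 9 and 6, beside 47.7% of all genes. The 6 tudor genes had the highest median of these lists, but the difference between lists was not tested. Members and lists were chosen with earlier results of these data known, and tdrd12 and tdrd15 were placed outside the 6. The order of the medians therefore cannot set the 6 apart.

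Markers of embryonic cell layers outside the germ line went the opposite way, the same as the early zygotic genes. Their values too are levels in a precipitate without an input, and whether the age labels were exchanged was not tested. Of 14 markers of the enveloping layer and the yolk syncytial layer, 12 were tested. None was higher at 4 hpf and 9 were at least 2-fold lower, with a median of -2.86. Beside them, 33.0% of all genes tested were higher and 10.9% lower. Their summed level was 39.7 RPKM at 4 hpf and 188 RPKM at 2 hpf over the 13 matched genes, none of which was at 0. The keratin gene krt4 was at 0.356 RPKM at 4 hpf and 17.8 RPKM at 2 hpf, and evpla, which encodes envoplakin, at 0.230 RPKM (4 hpf) and 20.7 RPKM (2 hpf). Less extreme was apoeb, at 4.72 RPKM (4 hpf) and 23.5 RPKM (2 hpf). The fall in log2(RPKM + 1) was under 1 for 3 markers. These were grhl3, at 17.9 RPKM (4 hpf) and 27.1 RPKM (2 hpf), and, named after their values were seen, krt5 (difference -0.46) and mxtx2 (-0.73). The plain ratio of mxtx2, 4 hpf over 2 hpf, was 0.498. Whether these markers and the tudor genes moved for a shared reason was not tested.

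**Figure D4:**
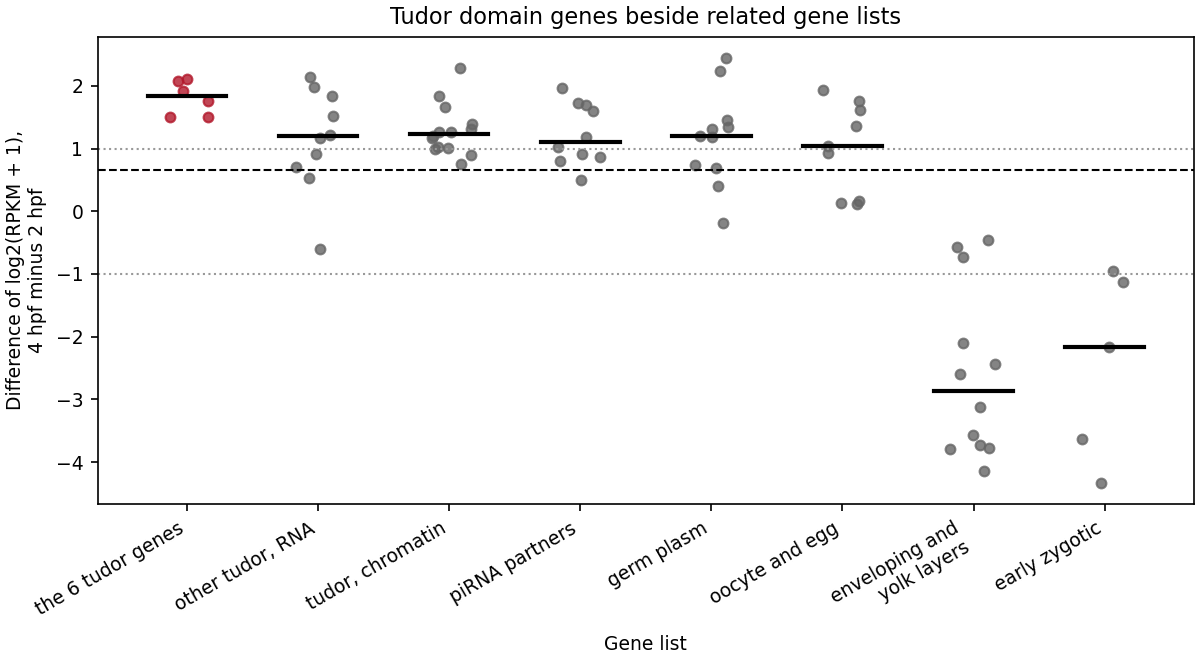
Difference in log2(RPKM + 1), 4 hpf minus 2 hpf, of each tested gene (points) in the 6 tudor domain genes (red) and 7 other lists (grey), with list medians as black bars, the median of all genes dashed and 2-fold differences dotted. The 6 tudor genes lie between 1.50 and 2.1, and the markers of the enveloping and yolk layers between -4.14 and -0.46.

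Likeness of pattern could be judged over 2 tables only, as the distance between 2 genes over their log2(RPKM + 1) values. The nearest gene with a proper name was znf451 for TDRD6 (24.8 RPKM at 4 hpf and 5.09 RPKM at 2 hpf, distance 0.01), CRKL for TDRD1 (18.6 and 3.72 RPKM) and TAF6L for tdrd7a (18.5 and 5.78 RPKM). For tdrd5 it was PRICKLE2 (15.3 RPKM at 4 hpf and 3.26 RPKM at 2 hpf), for TDRD9 ppip5k1b (7.47 and 1.58 RPKM) and for tdrkh ATXN1 (7.21 and 1.96 RPKM). The pattern is shared with many genes. Within a distance of 0.25 there were 37 named genes around TDRD1, 61 around TDRD6, 60 around tdrd5, 75 around TDRD9, 178 around tdrd7a and 192 around tdrkh.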

How the data were processed

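RNA from 4 RIP-seq samples was deposited as 1 table per age. RPKM values were made by the authors, and that each is a mean over replicates is read from how the tables were named. TopHat2 2.1.1, Bowtie, bedtools 2.16.2, MACS2 2.0.10, Trimmomatic 0.36, cutadapt 1.13 and build Zv9 were used per the submitters' processing notes, which give no role or order. The annotation and the counting program were not given in the sources used here. Unequal shares of a few abundant features can lower the RPKM of all other genes, and how far they did so here was not tested.

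Symbols came from a table of Ensembl IDs, which named 20039 of 27205 IDs, and a gene missing from a table was taken as 0. The difference was log2(RPKM + 1) at 4 hpf minus 2 hpf, over genes that reached 1 RPKM at either age. It was computed with pandas 2.3.3 and numpy 2.4.6 and tested on simulated data. The simulated data held no shift common to all genes, so that check does not cover such a shift. With 1 mean per age there is no test.

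Members and lists were chosen with earlier results of these data known. Named genes are the members, up to 2 of each list by level and up to 2 by difference among those with at least 5 RPKM, and the nearest genes by distance over both tables. Exceptions are named as such.

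Alternatives were pseudocounts of 0.1 and 5, other filters, 4 scalings, a 4-fold threshold and matching through synonyms. A ratio without pseudocount and the background of like level were added later.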

Additional observations from a re-analysis of the deposited data

How the results depend on the processing

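No paired analysis was possible because the tables used here hold only means per age, and replicates could not be left out in turn for that reason. Depth, replicate spread and background binding are unknown, which limits every value here. Results without pseudocount and the background of like level were chosen after the data were seen. Leaving out each tudor gene in turn gave medians from 1.76 to 1.92, and matching through synonyms left the count at 6, since the added TDRD7 ID was under 1 RPKM at both ages.

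For single tudor genes, differences under 1 were found with a pseudocount of 5 (TDRD9 0.94, tdrkh 0.83), after quantile normalization (tdrd7a 0.72), on the sum without the 100 highest genes (tdrd7a 0.74, tdrkh 0.80) and at an equal median ratio (tdrd5 0.98, TDRD9 0.89, tdrkh 0.64, tdrd7a 0.55, median 0.93, with 2 genes higher). No difference of a tudor gene changed sign. At a 4-fold threshold 2 were higher.

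Over all genes, against 4409 higher and 1452 lower, a pseudocount of 5 gave 1907 and 371, with 347 and 2533 at an equal median ratio, 801 and 2222 without the 100 highest genes, and 291 and 342 at 4-fold. An equal sum gave 6668 and 1199 and quantile normalization 1369 and 2084, and 607 were lower among those reaching 5 RPKM. The median of all genes was 0.89 and 0.32 with pseudocounts of 0.1 and 5, 0.05 with no filter, 1.02 with a filter of 5 RPKM, 0.95 at an equal sum, 0.22 after quantile normalization, 0.05 without the 100 highest genes and -0.13 at an equal median ratio.

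Higher genes in the other lists, in the order of other tudor, chromatin tudor, piRNA partner, germ plasm and egg genes, numbered 1, 1, 0, 2 and 1 at an equal median ratio, 3, 2, 2, 2 and 1 both after quantile normalization and without the 100 highest genes, and 1, 1, 0, 2 and 0 at 4-fold. With a pseudocount of 5, the last 4 of these lists had 4, 3, 3 and 3. Counts rose to 8, 14, 9, 9 and 6 at an equal sum, and were 7, 13, 8, 7 and 5 with a pseudocount of 0.1. Over all genes the higher share was 2.86% at an equal median ratio, 10.3% after quantile normalization and 6.5% without the 100 highest genes. It was 2.18% at 4-fold, 14.3% with a pseudocount of 5 and 47.7% at an equal sum. With a pseudocount of 0.1, 6088 of the 13341 genes tested were higher. The cause of these moves was not tested.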
